A study of Homo sapiens with 6 samples.

Results

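The genes described here are 10 genes of the Notch pathway in U87 cells, an established human glioblastoma line. They comprise the receptors NOTCH1, NOTCH2 and NOTCH3, the ligands JAG1, JAG2 and DLL1, the ligand ubiquitin ligases NEURL1B and MIB1, and the target genes HES1 and HEY1. They are 10 of the 60612 genes in the count table. The set was chosen by name and role with earlier results of this comparison known, and it was built around NEURL1B, whose lower count in the knockdown had already been seen. Their differences between the groups are therefore given as a description, without p-values, and where their calls in the fit over all genes are counted, nothing is read from the count.

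RNA was sequenced in 2 groups of 3 libraries. NC cells carried a scramble shRNA and shPRMT6 cells carried an shRNA against PRMT6, an arginine methyltransferase that modifies histones. Both were delivered by lentivirus into the same line, grown in medium with serum and selected with puromycin as stable cells. The methods call the 3 libraries of a group independent replicates and do not say which of the designed PRMT6 hairpins was sequenced. The study asked which RNAs differ when PRMT6 is depleted.

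Notch receptors are single-pass membrane proteins that are switched on by ligands on a neighbouring cell. Ubiquitin ligases of the Mind bomb and Neuralized families mark the ligand for endocytosis, which pulls on the receptor and exposes it to cleavage by ADAM proteases and gamma-secretase. The released intracellular domain joins RBPJ and Mastermind on DNA and turns on repressors of the HES and HEY families, and in glioma the pathway is known for its part in stem-like growth.

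In shPRMT6 the ligand JAG1 and the receptor NOTCH3 had more RNA, and the receptor NOTCH1, the ligand DLL1 and the ligase NEURL1B had less, with no overlap between the libraries of the groups for any of these 5 genes, where 40.2% of all 18106 genes tested did not overlap. NEURL1B was at 43.4% of its NC level and JAG1 at 194%. The libraries overlapped for NOTCH2, JAG2, MIB1, HES1 and HEY1. Outside these 10 genes, 58 other pathway genes could be tested, of which 6 rose and 3 fell, a called share of 15.5% beside 18.6% over all genes tested.

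Promoters are shown for HES1, the textbook target of the pathway, and for NEURL1B and JAG1, the members with the largest fold changes down and up. RefSeq promoters on GRCh38.p14, from 250 bases before to 50 bases after the start of transcription, were matched for 8 of the 10 genes, with DLL1 and HEY1 unmatched. Capitals mark matches, on either strand, to TGGGAA, the core that RBPJ binds, or to CACGNG, a box bound by HES and HEY proteins. No match to one motif overlapped a match to the other. The HES1 promoter is at chr3:194135898-194136197 on the plus strand, that of NEURL1B at chr5:172641013-172641312 on the plus strand and that of JAG1 at chr20:10673950-10674249 on the minus strand.
HES1: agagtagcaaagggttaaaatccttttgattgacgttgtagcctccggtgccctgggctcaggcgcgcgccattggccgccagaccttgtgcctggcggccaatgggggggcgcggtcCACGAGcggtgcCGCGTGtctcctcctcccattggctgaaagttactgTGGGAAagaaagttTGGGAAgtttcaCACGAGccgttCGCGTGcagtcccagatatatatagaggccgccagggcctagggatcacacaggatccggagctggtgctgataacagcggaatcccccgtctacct
NEURL1B: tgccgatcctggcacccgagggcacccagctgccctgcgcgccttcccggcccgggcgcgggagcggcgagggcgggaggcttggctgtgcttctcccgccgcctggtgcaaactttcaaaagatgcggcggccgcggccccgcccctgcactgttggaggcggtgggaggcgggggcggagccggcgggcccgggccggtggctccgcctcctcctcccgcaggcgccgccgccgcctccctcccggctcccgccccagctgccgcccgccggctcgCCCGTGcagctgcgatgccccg
JAG1: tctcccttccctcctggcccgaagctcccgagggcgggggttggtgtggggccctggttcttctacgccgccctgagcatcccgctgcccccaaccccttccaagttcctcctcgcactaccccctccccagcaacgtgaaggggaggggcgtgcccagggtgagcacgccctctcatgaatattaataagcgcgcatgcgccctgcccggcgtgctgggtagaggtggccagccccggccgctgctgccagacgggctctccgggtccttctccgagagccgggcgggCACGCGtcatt

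HES1 held 2 RBPJ cores on its plus strand, at bases -84 to -79 and -70 to -65 from the start. It was the only one of the 8 promoters with an RBPJ core, a share of 12.5% where 24.0% of 35116 RefSeq promoters of the same length held one. The longer form GTGGGAA, which contains the core, was found at the first of these 2 places, and 6.2% of all promoters held it. The HES1 promoter also held 4 CACGNG boxes, 2 on either side of the RBPJ cores. Such boxes were present in 6 of the 8 promoters (75%) and in 30.5% of all promoters, and neither NOTCH1 nor MIB1 held one. The box of NEURL1B began 29 bases after the start and that of JAG1 40 bases after it. The GC content of the 3 printed stretches was 59.0% for HES1, 79.3% for NEURL1B and 68.7% for JAG1, and its part in these shares was not tested. A match describes the letters only and does not show binding in these cells.

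The libraries held 56388161 to 75887696 counts. PRMT6 itself fell from 8.16 ± 1.08 to 4.46 ± 0.844 CPM (counts scaled to library size with TMM; SD, n = 3), with 9.33, 7.97 and 7.19 CPM in NC and 3.56, 4.58 and 5.24 CPM in shPRMT6, a log2 fold change of -0.87 (SE 0.187, edgeR quasi-likelihood test with Benjamini-Hochberg adjustment, adjusted p = 0.0225). The adjusted p of PRMT6 was 0.0613 without NC 1, 0.0588 without shPRMT6 1 and 0.0713 without shPRMT6 2. Of the astrocytic and glioma markers, VIM was at 1299 FPKM and CD44 at 47.8 FPKM (fragments scaled to gene length and library depth) on average in NC, whereas S100B and AQP4 had no counts and GFAP was at 0.0218 FPKM. The endothelial list of 5 genes had summed levels of 2.62 to 3.70 FPKM in NC and 4.11 to 4.43 FPKM in shPRMT6, with 1 of its 4 tested genes called. TEK rose from 7.97 ± 1.04 to 12.1 ± 1.09 CPM (edgeR adjusted p = 0.0288), and PECAM1 was at 2.89 ± 0.345 and 4.70 ± 0.897 CPM without overlap (edgeR adjusted p = 0.0544). VWF had 22, 0 and 4 counts in NC and 47, 41 and 24 in shPRMT6, KDR had a log2 fold change of 0.04, and CDH5 had at most 4 counts in a library. Of the epithelial markers, CDH1 fell from 0.642 ± 0.108 to 0.140 ± 0.0983 CPM (edgeR adjusted p = 0.0428). Its counts were 31, 58 and 38 in NC and 16, 4 and 7 in shPRMT6. KRT14 pointed the other way, at 0.0991 CPM in NC and 0.362 CPM in shPRMT6, without passing (log2 fold change 1.84, SE 1.07). EPCAM did not pass (log2 fold change -0.33, SE 0.431), and KRT5 had no counts. The part of these cell type markers in the results was not tested.

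All 10 genes passed the filter on low counts. Over the 18106 genes tested, 18.6% passed an adjusted p of 0.05, with 9.06% lower and 9.51% higher in shPRMT6, and 40.2% had groups whose CPM did not overlap. Of the 10 genes, 3 were lower and 2 higher by the same call, and the same 5 did not overlap. With 1 library left out, DLL1 lost the call in 5 and NOTCH3 in 4 of 6 fits. The threshold of the methods, read as an absolute log2 fold change above 1 with an unadjusted p under 0.05, held for 5.92% of the genes tested and, of the 10, for NEURL1B. The median log2 fold change was 0.01 over the 10 genes, 0.02 over the 58 other pathway genes and -0.01 over all genes tested, and the median absolute value was 0.55, 0.24 and 0.31. In bulk RNA, fewer cells with a transcript and less RNA per cell cannot be told apart.

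The receptors differed in opposite directions. NOTCH1 (ENSG00000148400, chr9:136494433-136545786, minus strand) had 2249, 3162 and 2904 counts in NC and 1806, 1692 and 1898 in shPRMT6. These came to 40.2, 41.6 and 46.5 CPM in NC and 28.4, 27.5 and 28.0 CPM in shPRMT6. Every shPRMT6 library was below every NC library, and the shPRMT6 libraries lay closer together. The mean went from 42.8 ± 3.31 to 27.9 ± 0.439 CPM (SD, n = 3), or 65.4% of NC, with a log2 fold change of -0.61 (SE 0.0822).

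NOTCH3 (ENSG00000074181, chr19:15159038-15200981, minus strand), a receptor otherwise known from vascular smooth muscle, went the other way. Its levels were 5.20, 5.63 and 5.35 CPM in NC and 7.63, 7.88 and 9.34 CPM in shPRMT6. Every shPRMT6 library was above every NC library, and shPRMT6 3 was the highest. The mean was 5.39 ± 0.216 CPM in NC and 8.28 ± 0.925 CPM in shPRMT6 (SD, n = 3), 154% of NC, with a log2 fold change of 0.62 (SE 0.129).

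NOTCH2 (ENSG00000134250, chr1:119911553-120069626, minus strand) was the most abundant of the 10 genes per length. It was at 354, 423 and 395 CPM in NC and 399, 408 and 424 CPM in shPRMT6. The groups overlapped, and NC 1 was below the other 5 libraries. The log2 fold change was 0.07 (SE 0.0753). The count of NOTCH2 carries a limit of its own. Of its 75-base stretches, 20% also occur in another gene model of GENCODE 29, most of them in the model of NBPF19. The partial copies NOTCH2NLB, NOTCH2NLC and NOTCH2NLR, described below, had counts but could not be placed in that release. Stretches shared with their own models were therefore not assessed, and the 20% is not an upper limit.

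Human genomes also hold partial copies of NOTCH2, which keep the first part of the receptor gene, and the counts of some varied widely within groups. NOTCH2NLA had 89, 672 and 105 counts in NC and 117, 857 and 659 in shPRMT6, whereas NOTCH2NLC had 452, 638 and 540 in NC and 583, 65 and 614 in shPRMT6. In shPRMT6 2 the first was at its highest and the second at its lowest. NOTCH2NLR had 46, 78 and 3 counts in NC and 85, 47 and 66 in shPRMT6. NOTCH2NLB had 116, 164 and 231 counts in NC and 179, 129 and 144 in shPRMT6. NOTCH2P1 had no counts. Counts of near-identical copies can be split between them by the counting, so single values of these genes are uncertain.

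Per length, the 4 receptor genes, with NOTCH4 added, summed to 21.1 ± 1.77 FPKM in NC and 21.0 ± 0.577 FPKM in shPRMT6 (SD, n = 3). NOTCH2 made up 78.2% ± 1.20 of that sum in NC and 83.1% ± 0.539 in shPRMT6. The share of NOTCH1 was 16.5%, 14.7% and 17.1% in NC and 11%, 10.5% and 10.3% in shPRMT6. The level of NOTCH1 per length was 7.04 ± 0.593 times that of NOTCH3 in NC and 3.01 ± 0.325 times in shPRMT6. The summed receptor level thus overlapped between the groups, while the shares of NOTCH1, NOTCH2 and NOTCH3 did not.

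JAG1 (ENSG00000101384, chr20:10637684-10673999, minus strand), a ligand of the Jagged class, was the member that was higher in shPRMT6 by the largest fold. It had 1648, 2240 and 1679 counts in NC and 3563, 3386 and 3788 in shPRMT6, or 29.5, 29.4 and 26.9 CPM against 55.9, 55 and 55.9 CPM. The lowest shPRMT6 library stood far above the highest NC library. The mean was 28.6 ± 1.48 CPM in NC and 55.6 ± 0.533 CPM in shPRMT6 (SD, n = 3), a log2 fold change of 0.96 (SE 0.0707).

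DLL1 (ENSG00000198719, chr6:170282206-170306565, minus strand), a ligand of the Delta class, was lower. Its levels were 4.31, 4.27 and 4.50 CPM in NC and 2.28, 3.20 and 2.48 CPM in shPRMT6. The NC libraries were close together and all above the shPRMT6 libraries, of which shPRMT6 2 was the highest. The mean was 4.36 ± 0.122 CPM in NC and 2.65 ± 0.485 CPM in shPRMT6 (SD, n = 3), 60.8% of NC, with a log2 fold change of -0.72 (SE 0.177).

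JAG2 (ENSG00000184916, chr14:105140981-105168824, minus strand), the other Jagged ligand, was the least abundant of the 10 genes per length. It had 74, 53 and 92 counts in NC and 84, 96 and 134 in shPRMT6, or 1.32, 0.697 and 1.47 CPM against 1.32, 1.56 and 1.98 CPM. The groups overlapped, and the log2 fold change of 0.48 had an SE of 0.339. A difference of that size was not detectable with this error.

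The summed level per length of the Jagged and Delta ligands was 3.74, 3.70 and 3.65 FPKM in NC and 5.76, 5.91 and 5.90 FPKM in shPRMT6. JAG1 made up 69.9% ± 2.42 of it in NC and 86.4% ± 1.86 in shPRMT6, and DLL1 26.0% ± 1.25 and 9.99% ± 1.74 (SD, n = 3). The level of JAG1 per length over that of DLL1 was 2.80, 2.83 and 2.45 in NC and 10.1, 7.06 and 9.30 in shPRMT6. DLL3 and DLL4 had no counts in any library. The sum covers the Jagged and Delta genes only and leaves out DNER, which is given with the other pathway genes. Within that sum, JAG1 had the larger share in both groups and a higher share in shPRMT6.

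**Figure D1:**
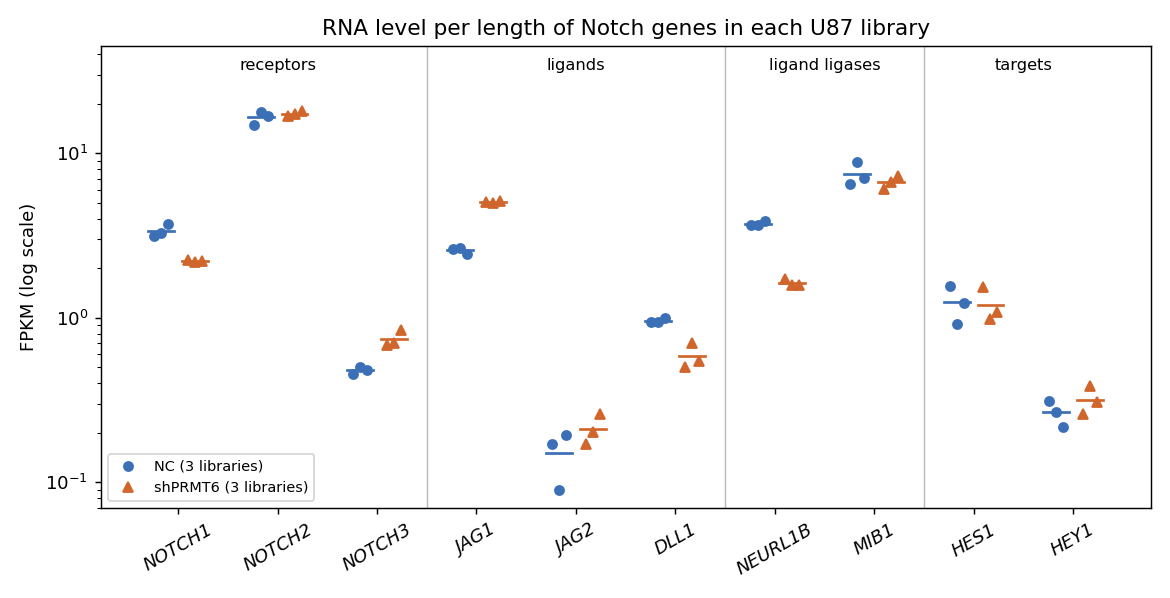
FPKM of the 10 genes on a log axis, ordered by role, with circles for the 3 NC libraries, triangles for the 3 shPRMT6 libraries and bars at the means. JAG1 moves from 2.58 to 5.06 FPKM and NEURL1B from 3.73 to 1.62 FPKM, while NOTCH2 stays the highest at 16.5 and 17.4 FPKM.

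NEURL1B (ENSG00000214357, chr5:172641266-172691540, plus strand), a Neuralized ligase that ubiquitinates Notch ligands, had the largest difference of the 10 genes. It had 1573, 2121 and 1833 counts in NC and 831, 739 and 810 in shPRMT6. Scaled for depth these were 28.1, 27.9 and 29.3 CPM in NC and 13, 12.0 and 12.0 CPM in shPRMT6. Both groups were tight and far apart. The mean was 28.4 ± 0.789 CPM in NC and 12.3 ± 0.618 CPM in shPRMT6 (SD, n = 3), a log2 fold change of -1.21 (SE 0.0841). An opposite-strand transcript, AC027309.1, overlaps 6.0% of its exon bases and had no counts in any library.

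MIB1 (ENSG00000101752, chr18:21704957-21870957, plus strand), the Mind bomb ligase used by most Notch ligands, was at 79.0, 106 and 84 CPM in NC and 72.5, 79.6 and 86.1 CPM in shPRMT6. The groups overlapped, with NC 2 the highest library. The log2 fold change was -0.18 (SE 0.127). Per length, the 4 ligase genes MIB1, MIB2, NEURL1 and NEURL1B summed to 12.0, 14.5 and 13 FPKM in NC and 9.70, 10.0 and 10.5 FPKM in shPRMT6. NEURL1B made up 28.5% ± 2.90 of that sum in NC and 16.1% ± 1.40 in shPRMT6, MIB1 57.1% ± 3.82 and 66.4% ± 3.06 (SD, n = 3). NEURL1, the paralogue of NEURL1B, had at most 4 counts in a library.

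**Figure D2:**
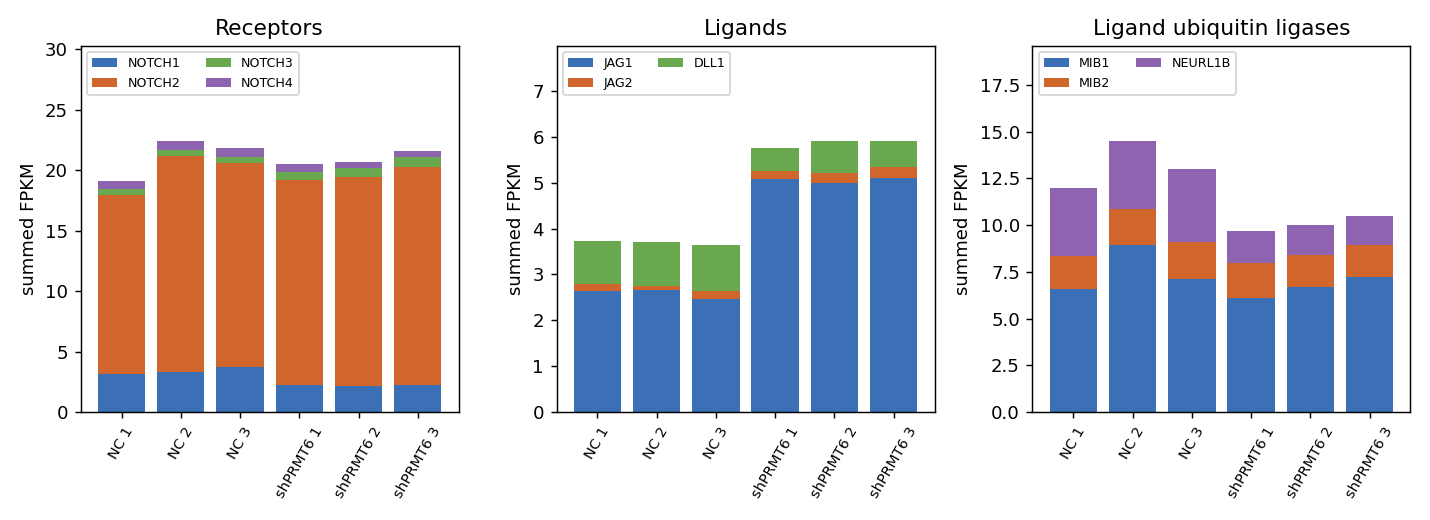
Stacked bars of FPKM in each library for the receptors, the ligands and the ligand ubiquitin ligases, with the bar height as the summed FPKM. The receptor bars are of like height in both groups (means 21.1 and 21.0), the ligand bars are taller in shPRMT6 (3.70 and 5.86) and the ligase bars are shorter (13.1 and 10.1).

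The target genes HES1 and HEY1, which encode repressors of transcription, overlapped between the groups. HES1 (ENSG00000114315, chr3:194136145-194138732, plus strand) was at 3.90, 2.26 and 3.03 CPM in NC and 3.77, 2.42 and 2.64 CPM in shPRMT6. Its spread within a group was larger than the distance between the means, 3.06 ± 0.818 and 2.94 ± 0.723 CPM (SD, n = 3), and its log2 fold change was -0.06 (SE 0.272). HEY1 (ENSG00000164683, chr8:79764010-79767863, minus strand) was at 2.11, 1.76 and 1.49 CPM in NC and 1.71, 2.53 and 2.04 CPM in shPRMT6, a log2 fold change of 0.23 (SE 0.236). With standard errors of this size, differences of the order seen in NOTCH1 would not have been clear in these 2 genes.

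**Figure D3:**
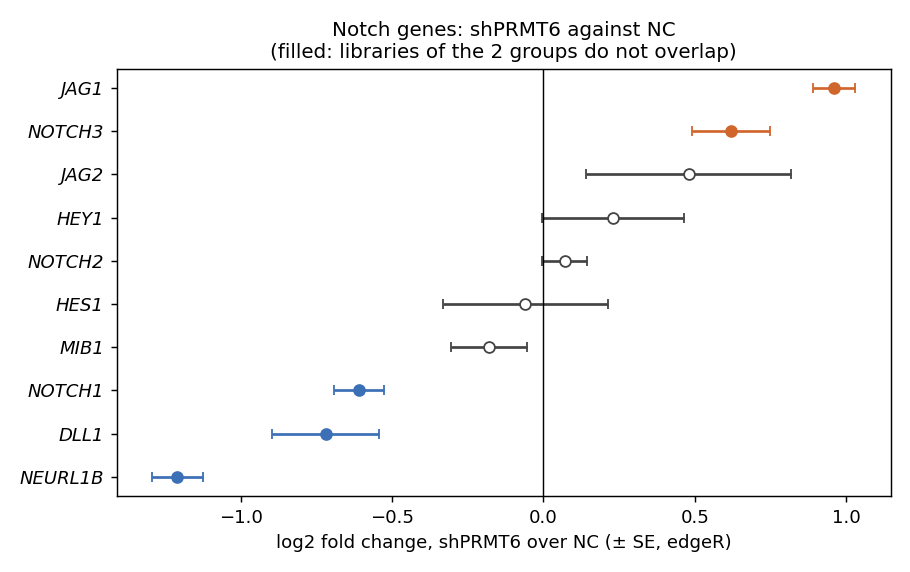
Log2 fold change of shPRMT6 over NC for the 10 genes with standard errors from the edgeR fit, ordered by value, where filled points are genes whose libraries did not overlap between the groups. The values run from -1.21 for NEURL1B to 0.96 for JAG1, and the 5 open points lie between -0.18 and 0.48.

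Ordered by mean FPKM in NC, the genes were NOTCH2 (16.5), MIB1 (7.53), NEURL1B (3.73), NOTCH1 (3.38), JAG1 (2.58), HES1 (1.24), DLL1 (0.960), NOTCH3 (0.481), HEY1 (0.267) and JAG2 (0.152). Neighbours in this order did not overlap in their libraries, except NEURL1B with NOTCH1 and HES1 with DLL1. In shPRMT6 the order by mean FPKM was NOTCH2 (17.4), MIB1 (6.70), JAG1 (5.06), NOTCH1 (2.22), NEURL1B (1.62), HES1 (1.20), NOTCH3 (0.743), DLL1 (0.586), HEY1 (0.318) and JAG2 (0.211), and the libraries of NOTCH3 and DLL1 overlapped. JAG1 thus stood below NEURL1B and NOTCH1 in NC and above both in shPRMT6.

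The 69 other pathway genes were listed by role, and 58 could be tested. Of these, 6 rose, 3 fell and 49 did not pass, 13 of the 49 with an unadjusted p under 0.05. DLL3, DLL4, HES3, HES5 and DTX1 had no counts in any library.

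Among the other receptor and ligands, 1 of 3 tested genes rose. DNER, a transmembrane protein with EGF repeats described as a Notch ligand in neurons and glia, was at 245, 229 and 235 CPM in NC and 299, 308 and 297 CPM in shPRMT6. All shPRMT6 libraries were above all NC libraries. Its log2 fold change was 0.35 (SE 0.0516, edgeR quasi-likelihood test with Benjamini-Hochberg adjustment, adjusted p = 0.00614). At 50.6 FPKM in NC and 64.9 FPKM in shPRMT6, DNER was the most abundant gene of the pathway list per length. NOTCH4 did not pass (log2 fold change -0.35, SE 0.143).

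Of 4 tested genes of ligand endocytosis, EPN1, an epsin that links ubiquitinated cargo to clathrin, rose from 248 ± 12.6 to 307 ± 4.76 CPM (log2 fold change 0.31, SE 0.0569, edgeR adjusted p = 0.0134). It was also the most abundant of its list, at 11.9 FPKM in NC and 14.8 FPKM in shPRMT6. The remaining 3, MIB2, EPN2 and DNM2, had log2 fold changes between -0.11 and 0.03.

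Of 5 tested genes of receptor glycosylation, EOGT, which adds N-acetylglucosamine to EGF repeats, fell from 32.3 ± 2.43 to 20.1 ± 3.71 CPM (log2 fold change -0.69, SE 0.147, edgeR adjusted p = 0.0225). POFUT1, the O-fucosyltransferase of Notch and the most abundant of the list, was at 24.3 FPKM in NC and 24.8 FPKM in shPRMT6 with a log2 fold change of 0.02 (SE 0.0501). LFNG, a Fringe enzyme that changes which ligands a receptor answers to, was at 4.02, 3.33 and 4.58 CPM in NC and 2.10, 2.86 and 1.56 CPM in shPRMT6, and missed the threshold (log2 fold change -0.87, SE 0.261, edgeR adjusted p = 0.0648). The groups did not overlap in 4 of the 5 genes, all lower in shPRMT6, although 1 of them was called, and over all genes tested 40.2% did not overlap. RFNG was 1 of the 4, and GPS1 on the opposite strand overlaps 21.6% of its exon bases. GPS1 was lower in shPRMT6 too, at 48.1 to 50.6 CPM against 62.5 to 74.1 CPM in NC. The part of GPS1 reads in the RFNG count was not tested.

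All 9 receptor proteases were tested. FURIN, the convertase that cuts the receptor on its way to the surface, rose from 85.9 ± 5.07 to 102 ± 2.74 CPM (log2 fold change 0.24, SE 0.0658, edgeR adjusted p = 0.0467). PSENEN, a small gamma-secretase subunit and the most abundant of the list per length, was at 39.6 FPKM in NC and 46.4 FPKM in shPRMT6 and did not pass (log2 fold change 0.22, SE 0.0856). PSENEN shares 39.7% of its 75-base stretches with other gene models, so its level is uncertain. ADAM10, ADAM17 and NCSTN had log2 fold changes between -0.09 and 0.19 and did not pass. The groups did not overlap in 4 of the 9 genes, all higher in shPRMT6, where 40.2% of all genes tested did not overlap.

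In the nucleus, edgeR called 0 of the 9 genes of activation, 2 of them with an unadjusted p under 0.05. DESeq2 called the same 2 genes, MAML2 and CREBBP, while limma on the FPKM values called 0. With NC 1 left out, edgeR called EP300 of this list lower. RBPJ, the DNA-binding partner of all Notch receptors, was at 133, 164 and 151 CPM in NC and 155, 184 and 175 CPM in shPRMT6, with overlap. SNW1, the most abundant of the list, was at 35.8 FPKM in NC and 36.7 FPKM in shPRMT6. Of 13 tested genes of repression, CIR1, a corepressor that binds RBPJ, rose from 21.6 ± 2.39 to 32.1 ± 3.49 CPM (log2 fold change 0.57, SE 0.122, edgeR adjusted p = 0.0228). The histone deacetylases moved apart, with HDAC1 rising from 94.6 ± 3.26 to 110 ± 2.09 CPM (log2 fold change 0.22, SE 0.0563, edgeR adjusted p = 0.0387) and HDAC2 falling from 185 ± 7.71 to 157 ± 1.25 CPM (log2 fold change -0.24, SE 0.0548, edgeR adjusted p = 0.0274). TLE5, a short Groucho-family protein and the most abundant of this list, was at 35.3 FPKM in NC and 40.2 FPKM in shPRMT6 and did not pass. In the repression list the groups did not overlap in 7 of the 13 genes, 3 higher and 4 lower in shPRMT6. Over all genes tested, 40.2% did not overlap.

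Of 10 tested genes of receptor sorting and turnover, DTX3L, a Deltex-family ubiquitin ligase, rose from 19.5 ± 2.71 to 29.7 ± 1.82 CPM (log2 fold change 0.60, SE 0.124, edgeR adjusted p = 0.0193). PARP9, its partner protein, lies on the opposite strand, overlaps 3.7% of the exon bases of DTX3L and was higher in shPRMT6 too, at 16.4 to 16.8 CPM against 9.65 to 12.4 CPM in NC. Without strand, reads of the overlap cannot be assigned to either gene. NUMB, an inhibitor that sorts the receptor for turnover and the most abundant of the list, was at 195, 350 and 180 CPM in NC and 362, 312 and 263 CPM in shPRMT6. NC 2 was inside the range of shPRMT6, and NUMB did not pass (log2 fold change 0.37, SE 0.266).

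Of 5 tested other HES and HEY genes, HES7, the oscillating repressor of the segmentation clock (chr17:8120590-8124092, minus strand), fell by the largest fold of the list. It had 267, 281 and 242 counts in NC and 91, 55 and 67 in shPRMT6, or 4.77, 3.69 and 3.87 CPM against 1.43, 0.893 and 0.989 CPM. Every shPRMT6 library was far below every NC library. The mean was 4.11 ± 0.577 CPM in NC and 1.10 ± 0.286 CPM in shPRMT6 (SD, n = 3), 26.8% of NC, with a log2 fold change of -1.90 (SE 0.243, edgeR adjusted p = 0.00394), and it was the most abundant of these genes at 1.84 FPKM in NC. HES6, which opposes HES1, pointed the other way at 1.11, 1.04 and 1.38 CPM in NC and 2.79, 3.02 and 1.56 CPM in shPRMT6 without passing (log2 fold change 1.07, SE 0.301, edgeR adjusted p = 0.0536). HEYL and NRARP, other common readouts of Notch activity, had at most 8 counts in a library.

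**Figure D4:**
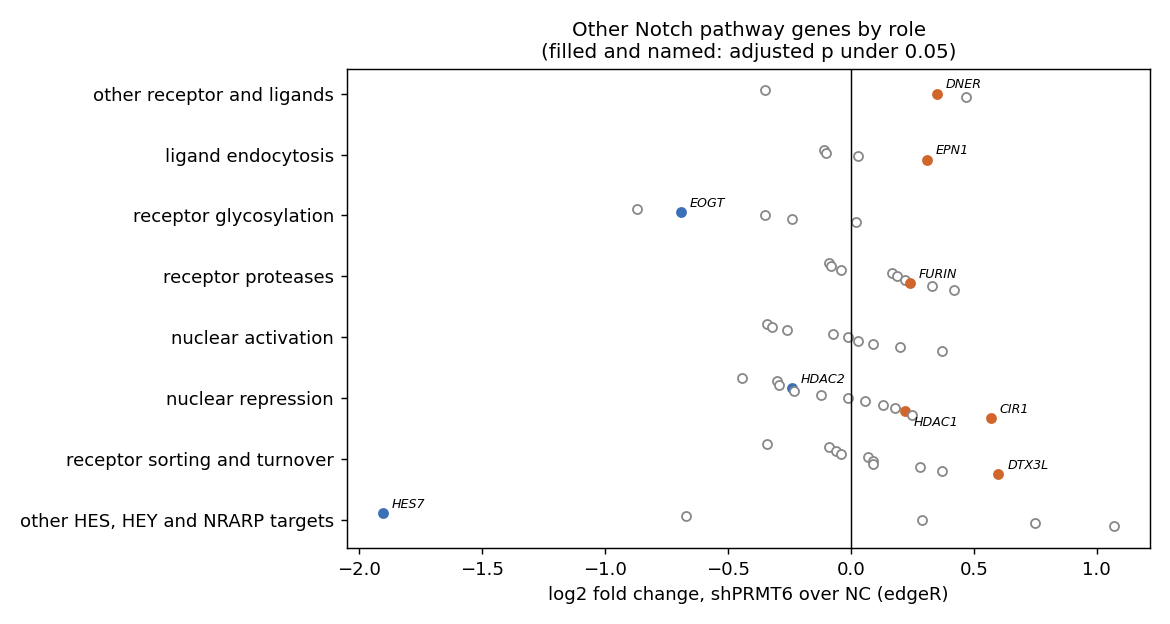
Log2 fold change of shPRMT6 over NC for the 58 tested genes of the pathway list, 1 row per role, where filled, named points passed an adjusted p of 0.05 in edgeR. HES7 stands alone at -1.90, and the points of nuclear activation lie between -0.34 and 0.37 with none filled.

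The calls of DNER and HES7 held in each of the 6 fits that left out 1 library. EPN1 and DTX3L lost theirs without shPRMT6 2 or shPRMT6 3 (adjusted p up to 0.0624 and 0.0716), CIR1 without NC 1, NC 3, shPRMT6 1 or shPRMT6 3 (up to 0.0795), HDAC2 without NC 1 or any 1 shPRMT6 library (up to 0.104) and EOGT without any 1 library except shPRMT6 3 (up to 0.0769), while FURIN and HDAC1 lost theirs whichever library was left out (up to 0.146 and 0.131).

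The genes whose pattern over the 6 libraries was most like that of NEURL1B were found by the Euclidean distance between log2 CPM values centred on each gene's mean, among the 10046 genes whose mean log2 CPM reached 3. The nearest were ZNF367 (distance 0.152), CCNB2 (0.166), STC2 (0.196), ACLY (0.200) and SPC25 (0.209). ZNF367 was at 32.8, 34.1 and 32.5 CPM in NC and 16.2, 14.7 and 15.0 CPM in shPRMT6, and CCNB2 at 64.4, 57.0 and 60.3 CPM against 26.7, 27.1 and 25.4 CPM. The log2 fold changes of the 5 genes were between -1.20 and -1.11, and the distance rests mostly on that difference between the groups.

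A hairpin can also act on transcripts that pair with bases 2 to 8 of its antisense strand, so the 3' untranslated regions were searched for such sites of the 3 designed hairpins. The site of hairpin 1, TGCCTTA, was present in 16.1% of 13259 tested genes and in JAG1 and NEURL1B, the members with the largest differences up and down. The site of hairpin 2, AGCATCT, was present in 17.2% of the genes and, of the 10, in MIB1. The site of hairpin 3, GGAGAGA, was present in 22.1% of the genes and in NOTCH2, JAG2, HES1, HEY1 and NEURL1B. The cell assays of the study name hairpins 2 and 3 and not hairpin 1, and the hairpin or hairpins sequenced are not named. Capitals mark the sites in stretches of GENCODE 29 transcripts on GRCh38, shown for JAG1 and NEURL1B.
JAG1, hairpin 1: gtacactgccTGCCTTAagtgaggaaa
NEURL1B, hairpin 1: aatctgtctgTGCCTTAcgaaagtgtc
NEURL1B, hairpin 3, first site: tttttctgtgGGAGAGAaagaatccta
NEURL1B, hairpin 3, second site: aaactcacctGGAGAGAgtccgggcac

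A site is a match of letters, and the part of such sites in the results was not tested.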

How the data were processed

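RNA-seq of 3 NC and 3 shPRMT6 libraries of U87 cells was analysed from 1 table. The authors deposited raw counts per gene, not normalized, and FPKM values, in which a count of 0 is listed at 1e-04. The submitters' processing notes name HISAT2, HTSeq 0.13.5 and GRCh38; the use of strand and the annotation release are not given in the sources used here. Of 60612 identifiers, 60401 were matched to a symbol. Positions, exon overlaps and shared stretches came from GENCODE 29.

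The test on the counts was the quasi-likelihood test of edgeR 4.0.16 (TMM, its low-count filter, Benjamini-Hochberg over 18106 genes) in R 4.3.3, with Python 3.11.15 for the tables and the pipeline checked on simulated data. CPM are TMM scaled and values after ± are SD over 3 libraries. The SE of an edgeR log2 fold change is its absolute value divided by the square root of the quasi-likelihood F statistic. Libraries of one group differed beyond counting noise (chi-square per degree of freedom 53.0 to 86.3), and p-values cover only the spread between these libraries.

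The members and all lists were chosen with earlier results of these data known. Named were the 10 members, PRMT6, every called gene of the pathway list and the most abundant gene (FPKM) of each role, the partial copies of NOTCH2 and the 5 genes most like NEURL1B. ADAM10, ADAM17, AQP4, CD44, CDH1, CDH5, CREBBP, DLL3, DLL4, DNM2, DTX1, EP300, EPCAM, EPN2, GFAP, GPS1, HES3, HES5, HES6, HEYL, KDR, KRT14, KRT5, LFNG, MAML2, MIB2, NCSTN, NEURL1, NOTCH4, NRARP, PARP9, PECAM1, RBPJ, RFNG, S100B, TEK, VIM and VWF were added after their values were seen. Values of 1 pathway gene are not reported here. The alternatives were DESeq2 1.42.0, other scaling factors and filters, the replicate number as a block, limma 3.58.1 on log2(FPKM + 1) or log2(FPKM + 0.1), and leaving out each library.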

Additional observations from a re-analysis of the deposited data

How the results depend on the processing

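Over all genes, the 3362 calls became 5782 with DESeq2, 1858 with the replicate block, 1073 with unfiltered limma on log2(FPKM + 1) and 1755 to 3183 when a library was left out. Among the fits that left out a library, the fewest calls came without shPRMT6 2 (1755), and the count was 1871 without shPRMT6 1, 1858 without shPRMT6 3 and 1939 without NC 3. The 6 pathway genes that rose became 13 with DESeq2, 2 with the replicate block, 1 with unfiltered limma and 2 to 6 when a library was left out (3 without shPRMT6 1, 2 without shPRMT6 2 or shPRMT6 3). The 3 that fell became 9, 1 and 1 in the same alternatives and 1 to 3 when a library was left out (1 without shPRMT6 1 or shPRMT6 2). Of the genes described above as not passing, DESeq2 called HES6, ADAM17, PSENEN and TLE5 higher and LFNG lower, among others. HES6 was also called higher with the filter of at least 10 counts in every library and without shPRMT6 3. DNER and HES7 passed in all 15 alternatives. PRMT6 (log2 fold change -0.87) was at -0.88 with the replicate block (edgeR adjusted p = 0.0803), at -0.47 with unfiltered limma (adjusted p = 0.158) and between -1.0 and -0.73 when a library was left out. The cause of these shifts was not tested. Same-numbered NC and shPRMT6 libraries did not deviate together (r of 0.003, -0.054 and -0.030 across 15581 genes, which are not independent replicates). These values cannot tell whether the samples were prepared in pairs, because pairs with small shared effects would look the same.

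The log2 fold change of NEURL1B stayed between -1.25 and -0.85 and that of JAG1 between 0.76 and 0.98 over 15 alternatives, the smaller values from log2(FPKM + 1). NOTCH1 kept its sign in the same 15, at -0.44 and without a call in unfiltered limma, and DLL1 and NOTCH3 kept theirs in the 13 that hold them. In unfiltered limma DLL1 was at -0.31 and NOTCH3 at 0.23, and both lost the call there and with the replicate block, at -0.73 and 0.61. DLL1 also lost it with the filter of at least 1 count in any library, where NOTCH3 kept it. With 1 library left out, DLL1 was between -0.87 and -0.62 and passed an adjusted p of 0.05 in 1 of 6 fits (without shPRMT6 2), and NOTCH3 was between 0.53 and 0.68 and passed in 2 of 6 (without NC 2 or without shPRMT6 1). HES1 kept its sign in 12 of 15 and NOTCH2 in 14 of 15, where NOTCH2 was at 0.00 without NC 1 and was not reversed. The median of the 10 genes was between -0.10 and 0.08. JAG2, HES1 and HEY1 had 53 to 240 counts in a library. With standard errors of 0.339, 0.272 and 0.236 in the edgeR fit, small differences could not be seen in these genes.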
